A study of Rattus norvegicus with 6 samples.

Results

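The clustered miR-183, miR-96 and miR-182, together with miR-483 and miR-325, were read as miRNAs linked to the pineal gland, and their levels were read in plasma exosomes of rats given melatonin or the solvent alone. Every row of the deposited table named rno-miR-182, rno-miR-183, rno-miR-96, rno-miR-483 or rno-miR-325 was taken, which gave 6 of 420 different mature miRNAs. These were rno-miR-182, rno-miR-183-5p and its partner strand rno-miR-183-3p, rno-miR-96-5p, rno-miR-483-5p and rno-miR-325-5p (the prefix, for the rat, is left out from here on). All 6 were among the 410 miRNAs above 0 in at least 2 libraries, which were tested.

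Plasma exosomes had been prepared from adult male Sprague Dawley rats of 200 to 250 g. In the EXO1 group, 3 libraries came from rats that had received intraperitoneal injections of 5% DMSO in PBS for 7 days. In the EXO2 group, 3 libraries came from rats given melatonin at 10 mg/kg in the same solvent over the same 7 days, so DMSO and the injections were common to both groups. For melatonin the study's methods name saline as the carrier, while its results name PBS, which is used here. Plasma was taken on day 8, and the sources used here give neither the hour nor an age beyond adult. Melatonin was thus supplied from outside, and no pineal tissue was sequenced. Nothing in the labels ties a library to a rat of its own. The p-values therefore describe how far libraries scatter, which may be a technical spread, and in such mixed samples fewer vesicles from a cell type and less RNA per vesicle cannot be told apart.

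miR-183, miR-96 and miR-182 are cut from neighbouring hairpins and are classic miRNAs of sensory organs. In the mouse they are abundant in photoreceptors and in the hair cells of the inner ear, and in the retina their levels follow light and dark. The pineal gland, which makes melatonin at night, is related to the retina by origin and is also rich in the cluster. miR-483 was reported to repress Aanat, the gene of the enzyme that sets the rhythm of melatonin synthesis, in rat pineal cells. miR-325 is encoded on the X chromosome.

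The sequences show which members can be told apart by their reads and which share a seed, the stretch from base 2 to base 8 that pairs with targets. RefSeq (GRCr8) holds all 6 mature forms, printed here 5′ to 3′ with the seed in capitals.
miR-182: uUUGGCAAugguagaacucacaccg
miR-96-5p: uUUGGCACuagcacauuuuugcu
miR-183-5p: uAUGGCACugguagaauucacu
miR-183-3p: uGAAUUACcgaagggccauaa
miR-483-5p: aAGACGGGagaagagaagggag
miR-325-5p: cCUAGUAGgugcucaguaagugu

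Within the cluster the seeds were alike but not the same. Counted from the 5′ end, the seed of miR-182 differed from that of miR-96-5p by A8C, and from that of miR-183-5p by U2A and A8C. Between miR-183-5p and miR-96-5p the only seed difference was A2U. miR-182 and miR-96-5p thus share bases 2 to 7, and no other of the 693 mature miRNA names in the RefSeq table has these 6 bases. None of the 6 members shared all 7 seed bases with any other of these miRNAs. Past the seed, miR-182 and miR-183-5p remained close, with 18 of 22 aligned positions identical, against 12 of 23 for miR-182 and miR-96-5p.

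The reads were long enough to separate the members. The authors kept trimmed reads of at least 15 bases, whereas the longest run of bases shared by any pair in the cluster was 8. Of the 420 miRNAs of the table, 382 were matched by name to RefSeq, and none of these held a run of 15 bases of any member. The cluster lies on the minus strand of chromosome 4. In GRCr8 the mature miR-182 is at chr4:59752249-59752273, miR-96-5p at chr4:59755901-59755923 and miR-183-5p at chr4:59756106-59756127, and the hairpins span 3908 bases in all. Only 97 bases separate the hairpins of miR-183 and miR-96, against 3533 between those of miR-96 and miR-182. On the opposite strand of the miR-183 hairpin RefSeq lists Mir3553, and since the use of strand in the counting is not stated, reads of this overlap are uncertain. The mature miR-483-5p lies at chr1:207247903-207247924, within the span of Igf2, the gene of a fetal growth factor, and miR-325-5p at chrX:74523574-74523596, within the span of a long non-coding RNA.

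The values are normalized CPM, which are reads scaled to a fixed total of miRNA reads per library and divided by a composition factor that the authors had applied. Each value was a whole multiple of the worth of 1 read, so reads could be counted back. The libraries held 2279500 to 5868405 miRNA reads in EXO1 and 3033119 to 4999379 in EXO2. A library at 0 reads allows up to 3 reads, which is 0.649 to 1.90 normalized CPM in EXO1 and 0.538 to 0.798 in EXO2, and these floors and all intervals for shares cover counting error only. Red cell and muscle miRNAs filled the libraries unequally. The 9 red cell miRNAs took 7.86 to 23.9% of the reads in EXO1 and 57.6 to 67.7% in EXO2. The 8 skeletal and heart muscle miRNAs took 82.6%, 23.2% and 0.909% in EXO1 replicates 1, 2 and 3 and 0.738 to 1.51% in EXO2. EXO1 replicate 1 stood apart, with 561937 reads outside these 2 lists against 1176346 to 2473480 in the other libraries, and with the lowest composition factor, 0.264, so that each of its reads was worth 0.634 normalized CPM against 0.179 to 0.266 elsewhere.

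The 3 guide strands of the cluster, the strands that are kept to repress targets, were read in every library. Their summed level was 2199, 2119 and 1413 normalized CPM in EXO1 replicates 1, 2 and 3, and 2742, 4641 and 3819 in EXO2 replicates 1, 2 and 3. Every EXO2 library lay above every EXO1 library. On the log2 scale the sum was 0.96 higher in EXO2 by a 2-sided exact permutation test with p = 0.1, the smallest p that 3 against 3 libraries allow. Of all 6 members, 3 had groups that did not overlap, 1 higher and 2 lower in EXO2, against 86 of the 410 miRNAs tested (21.0%). The 2 lower, miR-183-3p and miR-325-5p, could be tested only through EXO1, so this count does not show an excess. For miR-183-3p the nearest libraries of the groups held 1 read each, and their gap is only the worth of a read. miR-183-3p, miR-483-5p and miR-325-5p were near or below the floor in EXO2.

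**Figure D1:**
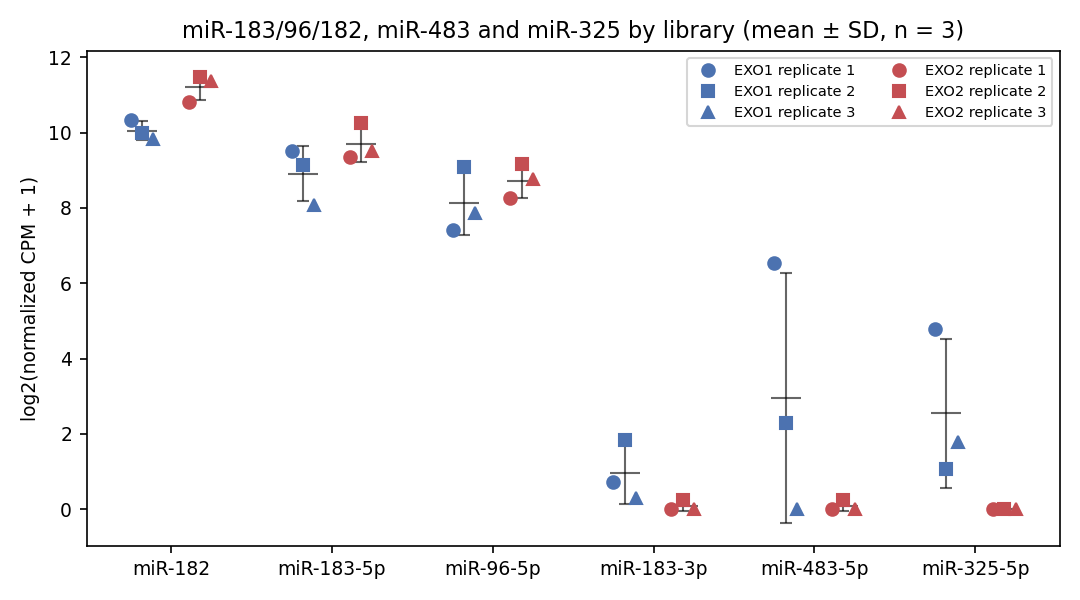
Level of each of the 6 miRNAs in each library, as log2(normalized CPM + 1) on the vertical axis, with EXO1 in blue, EXO2 in red, the marker shape giving the replicate and the black bars the mean ± SD over 3 libraries. The 3 EXO2 points of miR-182 lie above its 3 EXO1 points, the groups of miR-183-5p and miR-96-5p overlap, and EXO1 replicate 1 is the highest point of miR-483-5p and miR-325-5p.

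miR-182, which in the mouse supports photoreceptors, was the most abundant member in all 6 libraries. It had 1296, 1020 and 909 normalized CPM in EXO1 replicates 1, 2 and 3, and 1786, 2846 and 2650 in EXO2 replicates 1, 2 and 3. The groups did not overlap, and the lowest EXO2 library was above the highest EXO1 library. In EXO2, 47 of the 410 miRNAs tested (11.5%) lay above EXO1 in this way. By group, miR-182 had 1075 ± 199 in EXO1 (SD, n = 3) and 2427 ± 563 in EXO2 (SD, n = 3). Its log2 fold change was 1.16 (standard error 0.48, 95% interval 0.14 to 2.18) on the log2(normalized CPM + 1) scale in limma, with an unadjusted p = 0.0284 and an adjusted p = 0.333 over the 410 miRNAs. In limma it was the only member of the 6 past both limits of the study's methods (more than 1.5-fold, unadjusted p below 0.05). The study used these limits with tests other than limma. Its lists held miR-483-5p and miR-325-5p as lower and did not hold miR-182, so the calls for these members differ from those of the study. In limma 24 of the 410 miRNAs (5.85%) passed both limits as higher and 30 (7.32%) as lower. At an adjusted p of 0.05 limma called 0 of the 410 (0%), while 54 (13.2%) had an unadjusted p under 0.05. With variances fitted singly 1 was called, and 5 without the mean-variance trend.

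Without the composition factors the groups of miR-182 stayed apart. As a share of all miRNA reads, miR-182 took 0.0348%, 0.207% and 0.146% in EXO1 and 0.266%, 0.317% and 0.267% in EXO2. The unadjusted p of miR-182 depended on the scaling, at 0.137 with library totals only (adjusted p = 0.544) and 0.0563 with median-ratio size factors (adjusted p = 0.346), both from limma. It was 0.103 without the mean-variance trend, 0.131 without EXO2 replicate 2 and 0.116 without EXO2 replicate 3, while the log2 fold change was 1.03 to 1.37 whichever library was left out.

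miR-183-5p, the guide strand of the miR-183 hairpin, had the next highest level in each library. In EXO1 replicates 1, 2 and 3 its level was 732, 561 and 271 normalized CPM, and in those of EXO2 651, 1226 and 733. The groups overlapped, since EXO1 replicate 1 was above EXO2 replicate 1 and level with EXO2 replicate 3. Its log2 fold change was 0.80 (standard error 0.55, 95% interval -0.39 to 1.98, adjusted p = 0.449 from limma). It was 0.38 with EXO1 replicate 3, the lowest library, left out. As a share of all reads it took 0.0197%, 0.114% and 0.0435% in EXO1 and 0.0970%, 0.137% and 0.0738% in EXO2.

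miR-96-5p, whose seed mutations cause deafness in man and mouse, was the lowest of the 3 guide strands. Its levels were 171, 538 and 233 normalized CPM over the EXO1 libraries, against 305, 570 and 437 over the EXO2 libraries. The groups overlapped through EXO1 replicate 2, which was higher than 2 of the EXO2 libraries. Its log2 fold change was 0.60 (standard error 0.60, 95% interval -0.68 to 1.89, adjusted p = 0.562 from limma). Single EXO1 libraries decided its size, which was 0.25 without replicate 1 and 1.08 without replicate 2. All 3 guide strands had positive log2 fold changes, with a median of 0.80, where the median over all 410 miRNAs was -0.56. That median was set largely by rarely read miRNAs, and it was -0.055 over the 256 miRNAs with 10 or more normalized CPM in at least 3 libraries, a filter that the 3 guide strands pass. The intervals of miR-183-5p and miR-96-5p include 0 as well as changes larger than that of miR-182, so neither a difference nor its absence is shown for them.

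The order miR-182, miR-183-5p, miR-96-5p was the same in all 6 libraries, and the make-up of the 3 varied more among the EXO1 than among the EXO2 libraries. miR-182 took 58.9%, 48.1% and 64.3% of the summed reads in EXO1 and 65.1%, 61.3% and 69.4% in EXO2. miR-96-5p took 7.78%, 25.4% and 16.5% in EXO1, with 95% Wilson intervals of 6.94 to 8.72%, 24.6 to 26.3% and 15.6 to 17.4% that do not meet. In EXO2 it took 11.1%, 12.3% and 11.4%. EXO1 replicate 2 thus held the most miR-96-5p beside miR-183-5p, at almost equal reads (2489 and 2592), whereas replicate 1 held 270 and 1155.

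**Figure D2:**
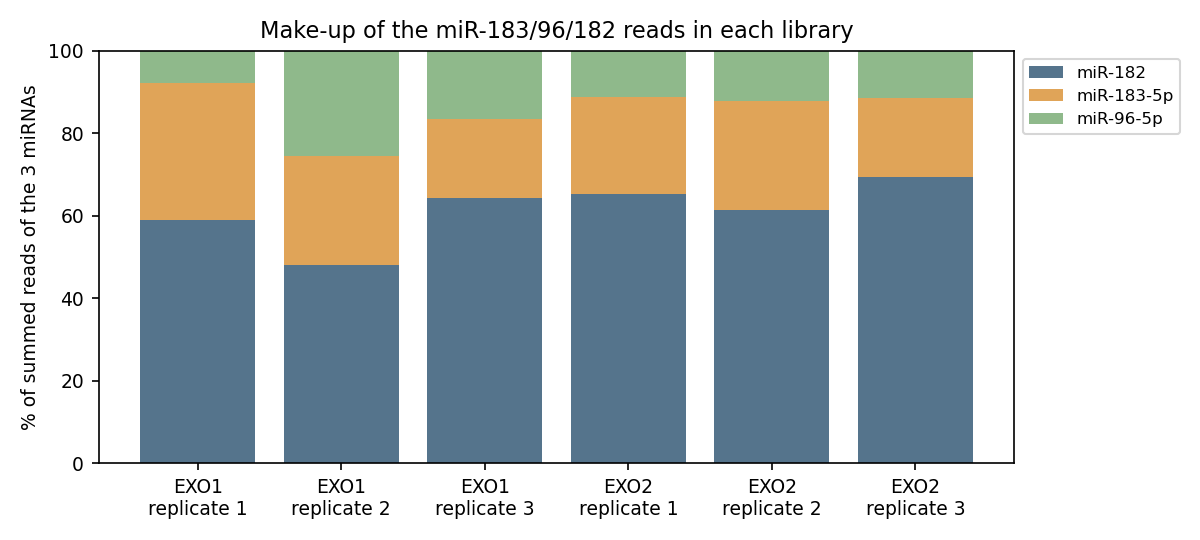
Share of miR-182, miR-183-5p and miR-96-5p in the summed reads of the 3 miRNAs (vertical axis, %), with 1 bar per library. The miR-96-5p share runs from 7.78% to 25.4% over the EXO1 libraries and from 11.1% to 12.3% over the EXO2 libraries.

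Ratios between members within a library do not depend on the scaling. For miR-182 over miR-183-5p the log2 ratios were 0.82, 0.86 and 1.74 among EXO1 and 1.46, 1.22 and 1.85 among EXO2 libraries, a difference of 0.37 (2-sided exact permutation test, p = 0.3). For miR-96-5p over miR-183-5p they were -2.09, -0.06 and -0.22 among EXO1 and -1.10, -1.10 and -0.75 among EXO2 libraries, a difference of -0.19 (2-sided exact permutation test, p = 0.9). Without EXO1 replicate 2 or 3 the sign of the latter turned, to 0.17 and 0.09. Over the 6 libraries, as a description, Pearson's r of the log2 levels was 0.81 between miR-182 and miR-183-5p, 0.48 between miR-182 and miR-96-5p and 0.45 between miR-183-5p and miR-96-5p, where all points share the library scaling.

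The EXO2 libraries, in which the cluster was higher, were also those with the most red cell miRNAs. For miR-451-5p, the leading red cell miRNA, the share of reads was 6.80%, 18.5% and 9.34% over EXO1 libraries, and 50.7%, 56.5% and 60.6% over EXO2 libraries. Set against miR-451-5p, the summed cluster reads had log2 ratios of -6.85, -5.43 and -5.36 over EXO1 libraries and of -6.96, -6.77 and -7.30 over EXO2 libraries, a difference of -1.13 (2-sided exact permutation test, p = 0.2). The groups overlapped here through EXO1 replicate 1.

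A further ratio, chosen after these values were seen, leaves out the reads of the red cell and muscle lists. Of the remaining reads the cluster took 0.618%, 0.812% and 0.259% in EXO1 and 0.992%, 1.51% and 1.22% in EXO2. Every EXO2 library was above every EXO1 library, with a log2 difference of 1.27 (p = 0.1 by a 2-sided exact permutation test, the lowest p possible here), in a range of 0.79 to 1.61 when 1 library was left out. As a share of all reads, muscle reads included, the cluster took 0.0591%, 0.430% and 0.227% in EXO1 and 0.408%, 0.517% and 0.385% in EXO2. These groups overlapped through EXO1 replicate 2, with a log2 difference of 1.27 (2-sided exact permutation test, p = 0.3) that was 0.47 without EXO1 replicate 1. Whether the cluster reads came from red cells, from other blood cells or from the pineal gland was not tested.

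**Figure D3:**
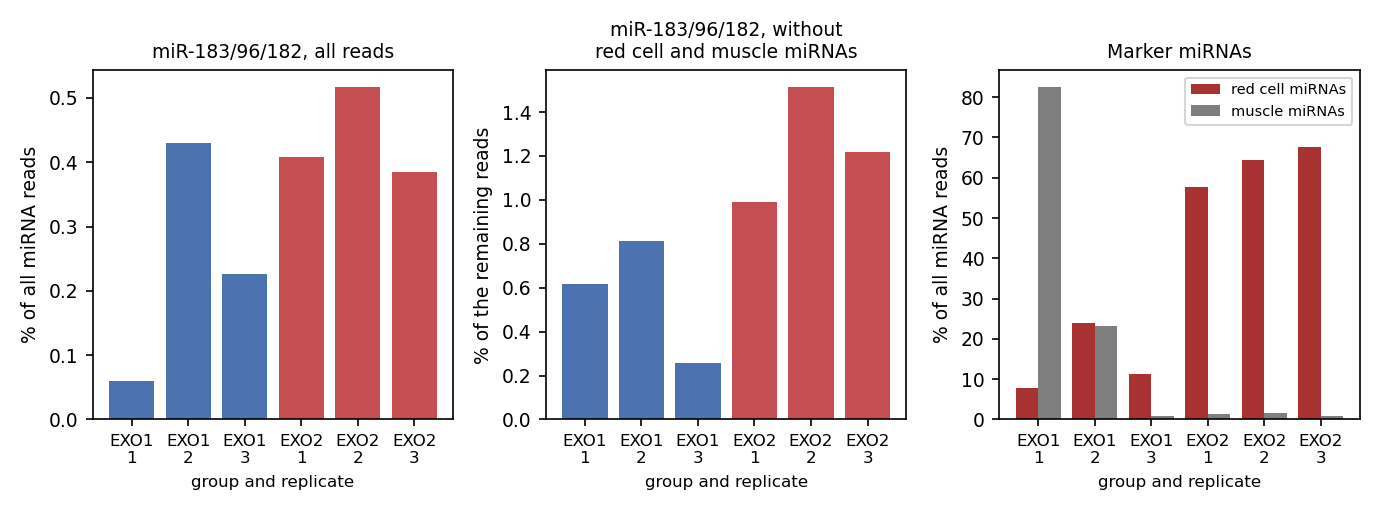
Summed reads of the 3 cluster miRNAs as % of all miRNA reads (left) and of the reads left after removal of red cell and muscle miRNAs (middle), and the % of all reads taken by red cell and muscle miRNAs (right), in each library, with EXO1 in blue and EXO2 in red in the left and middle panels. EXO1 replicate 1 is the lowest bar on the left, at 0.0591%, where muscle miRNAs took 82.6% of the reads, and in the middle all EXO2 bars, from 0.992% to 1.51%, are above the EXO1 bars.

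The 3 remaining members were above 0 in enough libraries to be tested only through EXO1, the group in which they were higher, so their fits describe these values and do not support a lower level. Of these, the other strand of the miR-183 hairpin was almost unread. The 110 bases of the hairpin are printed with both mature strands in capitals, miR-183-5p first and miR-183-3p second, to show that both come from the same transcript.
Mir183 hairpin: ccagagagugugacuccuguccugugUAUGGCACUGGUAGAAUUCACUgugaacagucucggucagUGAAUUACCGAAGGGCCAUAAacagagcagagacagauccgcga

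miR-183-3p had 1, 12 and 1 reads in EXO1 and 0, 1 and 0 reads in EXO2, against 1155, 2592 and 1228 reads of miR-183-5p in EXO1 and 2941, 6828 and 2753 in EXO2. Of the reads of both strands, the 3p strand took 0.461% in EXO1 replicate 2 (95% Wilson interval 0.264 to 0.804%) and 0.0146% in EXO2 replicate 2 (0.00258 to 0.0829%). In EXO1 replicates 1 and 3 it took 0.0865% (0.0153 to 0.488%) and 0.0814% (0.0144 to 0.459%). Both of these intervals overlap that of EXO2 replicate 2. In EXO2 replicates 1 and 3, 0 reads allow up to 0.102% and 0.109%. EXO1 replicate 2 was the only library above the floor of 3 reads. The normalized CPM of miR-183-3p was 0.634, 2.60 and 0.221 in EXO1 and at most 0.179 in EXO2. Its EXO2 libraries all lay below EXO1, but not with library totals or with factors computed without marker miRNAs. Its log2 fold change in limma was -0.87 (standard error 0.77, adjusted p = 0.528) on the log2(normalized CPM + 1) scale, which understates changes at this level. Between group means the ratio was 19.2 (95% Poisson interval of the 1 EXO2 read, 3.45 to 759, with the EXO1 mean taken as fixed). Without EXO1 replicate 2 it was 7.14, but every library then held 0 or 1 read, below the floor. That value thus reflects the worth of 1 read in each library and shows no difference. The guide and the passenger strand of this hairpin thus had fold changes of opposite sign, neither past a threshold. Their 95% intervals, -0.39 to 1.98 and -2.52 to 0.78, both included 0, so opposite changes of the strands are not shown.

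miR-483-5p, the 5p strand of the hairpin within Igf2, was read mainly in 1 library. It had 91.9 normalized CPM in EXO1 replicate 1 (145 reads), 3.89 in replicate 2 (18 reads) and 0 in replicate 3, and 0, 0.179 and 0 in EXO2, where replicate 2 held 1 read. EXO1 replicate 3 was at 0 like 2 of the EXO2 libraries, so the groups overlapped. Its log2 fold change was -2.86 (standard error 1.55, 95% interval -6.17 to 0.44, adjusted p = 0.379 from limma). Its 2-sided exact permutation test gave p = 0.4. Between group means the ratio was 534, and the 1 EXO2 read gives it a 95% Poisson interval of 95.8 to 21073. This interval takes the EXO1 mean as fixed, although EXO1 had 31.9 ± 52.0 normalized CPM (SD, n = 3), so it does not show a lower level. Without EXO1 replicate 1 that ratio was 32.5 (5.84 to 1285) and the log2 fold change was -1.07 (limma, adjusted p = 0.338). Without EXO1 replicate 3 the groups no longer overlapped, at an unadjusted p = 0.0276 (adjusted p = 0.274) in limma. As the only EXO1 library at 0, replicate 3 alone made the groups overlap, so this separation had to follow. It does not support a lower level.

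miR-325-5p was read in every EXO1 library and in no EXO2 library. It had 26.6, 1.08 and 2.43 normalized CPM in EXO1 (42, 5 and 11 reads) and 0 in all 3 EXO2 libraries. All EXO1 libraries were thus higher than all EXO2 libraries, as for 39 of the 410 miRNAs (9.51%), but EXO1 replicate 2 was only 2 reads above the floor. With 3 reads in place of 0 in each EXO2 library, the EXO1 mean of miR-325-5p was 15.1 times the EXO2 mean. Without EXO1 replicate 1 it was 2.63 times. These ratios allow for counting error in EXO2 only, not for the spread of the EXO1 libraries, and do not support a lower level. The log2 fold change was -2.54 (standard error 1.22, 95% interval -5.15 to 0.07), with an unadjusted p = 0.0553 and an adjusted p = 0.342 from limma. The unadjusted p in limma moved to either side of 0.05 with the settings. Leaving out EXO1 replicate 1, 2 or 3 gave 0.0162, 0.0336 and 0.0418, while leaving out EXO2 replicate 1, 2 or 3 gave 0.117, 0.123 and 0.129. Over the other alternatives it ran from 0.0239 with a pseudocount of 0.1 to 0.0901 with variances fitted singly, and adjusted p was 0.1195 to 0.609 over all of them.

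miR-483-5p and miR-325-5p had been listed as lower by the study from these same libraries, so their directions are not independent evidence. Both were highest in EXO1 replicate 1, the library that also carried the muscle reads named above, and whether their levels depend on the make-up of that library was not tested. Of all 410 miRNAs, 87 were highest in EXO1 replicate 1, 49 in replicate 2 and 109 in replicate 3. Among the 98 miRNAs with at most 3 reads in every EXO2 library, as for these members, the numbers were 38, 22 and 38.

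**Figure D4:**
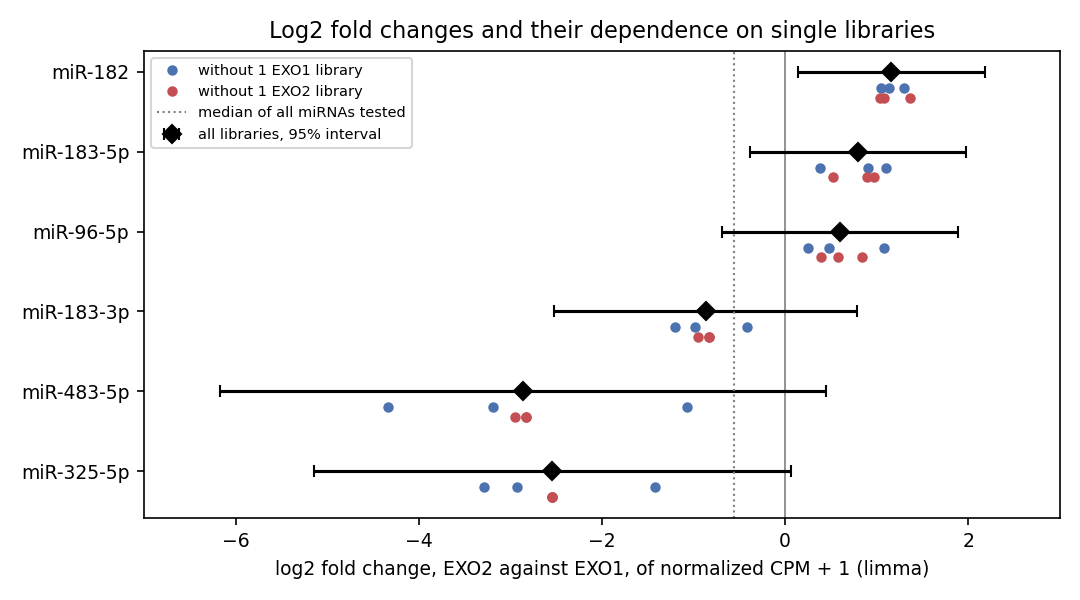
Log2 fold change of each miRNA, EXO2 against EXO1, on the log2(normalized CPM + 1) scale (horizontal axis), as black diamonds with limma's 95% interval, and below each the values with 1 EXO1 library (blue) or 1 EXO2 library (red) left out. Only the interval of miR-182, 0.14 to 2.18, leaves out 0, and the values of miR-483-5p move from -4.34 to -1.07 with the EXO1 library left out, while the dotted line marks the median of all 410 miRNAs at -0.56.

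Some miRNAs had a pattern over the 6 libraries like that of a member, measured by Pearson's r of log2(normalized CPM + 1), as a description. miR-182 was most like miR-17-5p (r = 0.993), miR-186-5p (0.983) and miR-93-5p (0.977). miR-17-5p, a miRNA that promotes proliferation, stood at 1689, 1403 and 1272 normalized CPM over EXO1 and at 1983, 2996 and 2562 over EXO2 libraries, in the same order of libraries as miR-182. miR-183-5p was most like miR-98-5p of the let-7 family (0.949), and like miR-486 (0.945) and miR-25-3p (0.912), both on the red cell list. miR-96-5p was most like miR-208b-3p (0.940), miR-208a-3p (0.924) and miR-1839-5p (0.914). miR-208a-3p, a heart muscle miRNA, stood at 0, 36.1 and 0 in EXO1 and 1.33, 10.4 and 5.59 in EXO2, so this likeness rests on EXO1 replicate 2 and on few reads. For miR-183-3p the likest were miR-301b-3p (0.965), miR-3068-3p (0.948) and miR-200c-5p (0.927), none above 5.41 normalized CPM in any library. miR-483-5p and miR-325-5p were read in too few libraries for this comparison.

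Other miRNAs known from the rodent retina were compared as a list of 12, of which 10 were measured and tested. The list was chosen with earlier results of these data known and is not limited to miRNAs particular to the retina, so its counts are a description. Of the 10, 7 had positive and 3 negative log2 fold changes, with a median of 0.92, against -0.56 over all 410 miRNAs. With the filter of 10 in 3 libraries, 9 were left, with a median of 0.96 against -0.055 over 256 miRNAs. miR-9a-5p of neural cells and miR-184 of cornea and lens were the 2 past the thresholds of the methods as higher (5.85% over all miRNAs), and miR-204-3p was the 1 past them as lower (7.32%). The study had listed all 3 from these libraries. miR-204-3p, at 0 in all EXO2 libraries, could enter the test only through EXO1. Its call was lost with library totals, with no filter, with the replicate block and without EXO2 replicate 1, 2 or 3, each of which left 0 lower calls in the list. In 3 of the 10, miR-9a-5p, miR-124-3p and miR-184, every EXO2 library was above every EXO1 library (11.5% over all miRNAs). Neuronal marker miRNAs, a list that shares miR-9a-5p and miR-124-3p with this one, took 0.0701 to 0.231% of the reads in EXO1 and 0.276 to 1.06% in EXO2, and their part in the result was not tested. By adjusted p in limma 0 of the 10 were called at 0.05, and 1, miR-184, without EXO1 replicate 1.

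miR-204-5p and miR-204-3p, the strands of a hairpin active in the retinal pigment epithelium, had log2 fold changes of opposite sign. In the other pair of strands tested from the list, miR-9a-5p and miR-9a-3p, both were positive, at 1.71 and 0.88 in limma. Levels of miR-204-5p were 309.8, 32.2 and 55.2 normalized CPM over EXO1 and 88.5, 256 and 185 over EXO2 libraries, with groups that overlapped and a log2 fold change of 0.96 in limma (standard error 0.88, adjusted p = 0.539). Levels of miR-204-3p were 5.07, 0.865 and 12.6 over EXO1 libraries and 0 in each EXO2 library, for a log2 fold change of -2.42 in limma (standard error 1.12, adjusted p = 0.342). The EXO1 libraries that were highest differed between the strands, replicate 1 for the 5p and replicate 3 for the 3p strand.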

How the data were processed

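Small RNA was sequenced from plasma exosomes in 3 EXO1 and 3 EXO2 libraries. Trimmed reads of 15 bases or more were annotated by the authors with miRDeep2. Tools in the submitters' processing notes were cutadapt 1.14, Bowtie and edgeR 3.18.1. Not given in the sources used here are genome build, annotation release and use of strand. The authors deposited a signal value per library and miRNA, headed CPM, which is reads scaled to a fixed library total over a composition factor, and log2 values of each group mean, which were only checked. All values (100%) were whole multiples of 1 step per library within 1e-06. No test on counts was run, because too few low values per library were left to accept recovered reads for it.

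Of 468 rows 420 were kept, for repeated names the row with the highest sum. miRNAs above 0 in at least 2 libraries were compared with limma 3.58.1 (lmFit, eBayes with trend) in R 4.3.3 on log2(value + 1), with Benjamini-Hochberg adjustment over 410 miRNAs. Ratios within libraries used reads plus 1 and exact permutation tests (Python 3.11.15). The tests were checked on simulated data. Named miRNAs were the members and the leading red cell and muscle miRNAs. For each member read in at least 4 libraries, the 3 with the highest Pearson's r were also named. Retina-related miRNAs were named if past a threshold or with groups apart. miR-204-5p and miR-9a-3p were added after their values were seen. The members and lists were chosen with earlier results of these data known. Alternatives were 4 scalings, 2 filters, every row kept, 2 pseudocounts, 2 variance models, the replicate number as a block, and each library left out. Sequences and coordinates are from RefSeq (GRCr8).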

Additional observations from a re-analysis of the deposited data

How the results depend on the processing

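Over 18 alternatives of the fit, no member passed an adjusted p of 0.05. The alternatives that can move a member's log2 fold change are the 4 scalings, the 2 pseudocounts and each library left out. Under these the signs of miR-182, miR-183-5p and miR-96-5p were kept. Those of miR-183-3p, miR-483-5p and miR-325-5p were kept too, but with 0 or 1 read in each EXO2 library they could hardly turn. Their kept signs therefore do not support a lower level. Requiring values of 10 in 3 libraries left miR-183-3p, miR-483-5p and miR-325-5p out. With 1 library left out, log2 fold changes were 1.03 to 1.37 for miR-182, 0.38 to 1.10 for miR-183-5p, 0.25 to 1.08 for miR-96-5p, -1.20 to -0.42 for miR-183-3p, -4.34 to -1.07 for miR-483-5p and -3.28 to -1.42 for miR-325-5p. The 1 member past the thresholds of the methods became 0 with median-ratio factors or the replicate block, 2 with pseudocounts of 0.5 or 0.1, and 0 to 3 with 1 library left out. With library totals only it was miR-325-5p in place of miR-182, as without the mean-variance trend.

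Over all miRNAs, the 54 past these thresholds became 31 with library totals only and 29 to 103 with 1 library left out (29 without EXO2 replicate 3, 103 without EXO1 replicate 1). Past an adjusted p of 0.05, 0 became 1 with each variance on its own, 5 without the trend, 2 with the replicate block and 0 to 2 with 1 library left out. The 86 with groups apart became 109 to 164, as fewer libraries separate more easily. Other scalings shifted the median of all miRNAs by -0.12 to 0.15, and relative to it miR-182 was 1.64 to 1.86 under them and 1.72 as deposited. Requiring 10 in 3 libraries moved that median most, by 0.505 to -0.055 over 256 miRNAs, and miR-182 was 1.22 relative to it. The ratio of miR-96-5p to miR-183-5p ranged from -0.84 to 0.17 with 1 library left out, turning sign without EXO1 replicate 2 (0.17) or 3 (0.09), and the cause was not tested.

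The values showed no pairing of libraries by replicate number. Deviations of same-numbered libraries correlated at -0.04, 0.06 and -0.12, and those of other pairs at -0.11 to 0.16. So few libraries cannot exclude a pairing. With the replicate block miR-182 had an unadjusted p = 0.0743 and an adjusted p = 0.491 in limma, at the same log2 fold change. Depth limits miR-183-3p, miR-483-5p and miR-325-5p, which had 0 or 1 read in each EXO2 library.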

Other observations

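miR-675-3p, from the H19 transcript next to Igf2 in the same imprinted domain as miR-483, was looked up after the values of miR-483-5p had been seen. It had 0, 1 and 20 reads in EXO1 replicates 1, 2 and 3, which is 0, 0.216 and 4.42 normalized CPM, and 0 reads in all EXO2 libraries. The EXO1 library with the most reads of miR-675-3p, replicate 3, was the one with 0 reads of miR-483-5p.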
